A study of Homo sapiens with 6 samples.

Results

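ZACN and the 2 genes that overlap it on the opposite strand, SRP68 and EXOC7, form a crowded stretch of human chromosome 17. They are 3 of the 60719 genes in the deposited tables, and their 40 transcripts are a small part of the 232184 listed there. ZACN was chosen by its expected counts, which differed widely between simulated microgravity (sµg) and normal gravity (1g), so its levels are described below without a test. SRP68 and EXOC7 were taken by position, because their annotated spans overlap that of ZACN. The question was whether the ZACN counts of the sµg libraries came from reads of its neighbours.

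The RNA came from human pluripotent stem cells (hPSCs), labelled as the embryonic stem cell lines H1 and H9, grown on Matrigel in StemFlex medium. The 3 sµg libraries, labelled Test, came from cells turned on a 2-D clinostat, a rotator that averages out the direction of gravity, and the 3 1g libraries, labelled Control, came from cells kept in normal gravity. The sample labels give no culture time and do not tell which library held which line. The study's methods say that experiments were repeated and that the 1g samples were matched to the sµg samples, but give neither the culture behind each library nor what was matched, and the p-values therefore reflect the scatter among these libraries alone, which can be technical. The libraries held 20588215, 19971097 and 20359184 expected counts in sµg and 28506848, 20876937 and 22995013 in 1g. An expected count is how many read pairs RSEM attributes to a gene or transcript, where a read that fits several of them is divided by probability.

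ZACN encodes a zinc-activated cation channel of the Cys-loop family, the family of the nicotinic, GABA-A, glycine and serotonin-3 receptors. SRP68 is a protein of the signal recognition particle, which binds the signal peptide of a nascent secretory or membrane protein and brings the ribosome to the endoplasmic reticulum, and it works as a pair with SRP72. EXOC7, also called Exo70, is a subunit of the exocyst, the complex that tethers secretory vesicles to the plasma membrane, and it binds membrane phosphoinositides. Both neighbours serve the secretory route and are widely expressed, while ZACN belongs to a family best known from excitable cells.

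On GRCh38, ZACN lies on the plus strand at chr17:76071961-76083666. SRP68 lies on the minus strand at chr17:76038775-76072517 and EXOC7 on the minus strand at chr17:76081016-76121576, so ZACN meets the start of SRP68 at one end and the end of EXOC7 at the other. The overlap with SRP68 covered 557 bases of the 2 gene spans but 0 exon bases, since no exon of one gene meets an exon of the other there. The overlap with EXOC7 covered 2651 bases, and all of them are exon in both genes. Of the 4307 exon bases of ZACN, 2651 lie in EXOC7 exons and 1656 in exons of neither neighbour. GALR2, a galanin receptor gene, lies inside the ZACN span on the same strand.

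**Figure D1:**
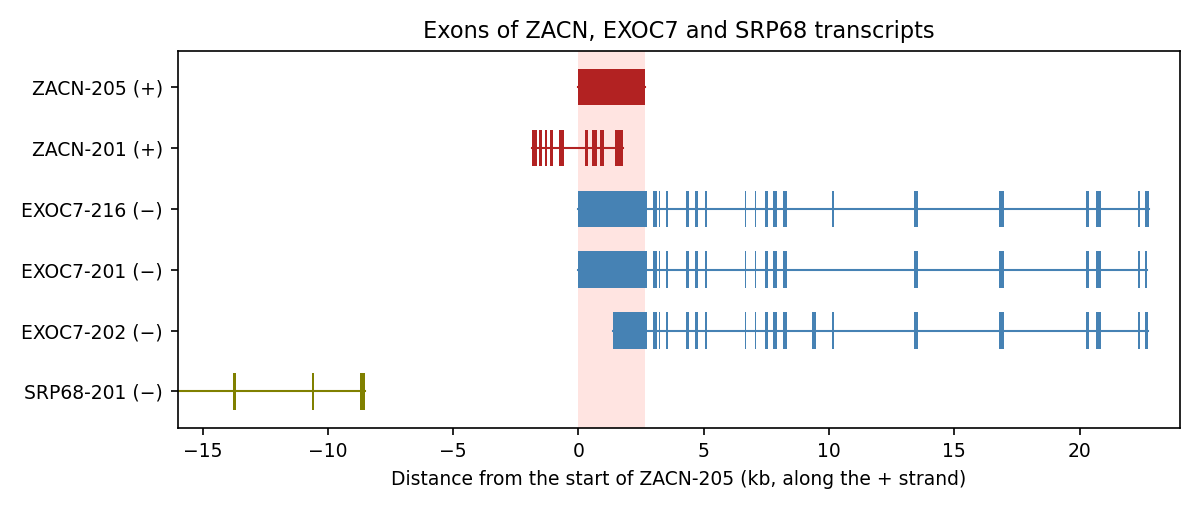
Exons of 6 transcripts, drawn as blocks against the distance in kb from the start of ZACN-205, with the strand in brackets and the shaded band marking ZACN-205. ZACN-205 is covered end to end by the last exon of EXOC7-216, while the SRP68 exons lie to the left of every ZACN exon shown (the SRP68 transcript continues past the left edge).

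The 2651 shared bases are a single transcript, ZACN-205 (ENST00000590045.1), which is annotated as a retained intron with 1 exon at chr17:76081016-76083666. Its whole sequence is the reverse complement of part of the last exon of EXOC7-216, which spans 2735 bases at chr17:76081016-76083750. Of the ZACN-205 bases, 16 lie in coding sequence of EXOC7 and the others in its 3′ UTR. The 2 sequences below show where the genes meet: the coding end of EXOC7-216 in its last exon at chr17:76083651-76083750 (minus strand), with the 16 bases shared with ZACN-205 in capitals, and the last 16 bases of ZACN-205 at chr17:76083651-76083666 (plus strand). Capitals mark the shared bases in both.
EXOC7-216 last coding stretch: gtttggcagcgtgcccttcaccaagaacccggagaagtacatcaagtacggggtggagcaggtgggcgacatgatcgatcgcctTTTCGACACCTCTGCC
ZACN-205 last bases: GGCAGAGGTGTCGAAA

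By contrast, ZACN-201 (ENST00000334586.10), the protein-coding transcript, has 9 exons, of which exons 1 to 5 lie outside all EXOC7 exons and exons 6 to 9 lie inside ZACN-205. Reads of the first 5 exons would therefore mark ZACN without sharing. The coding part of exon 3, at chr17:76079702-76079746, is shown as an example of sequence outside the EXOC7 exons.
ZACN-201 exon 3 coding part: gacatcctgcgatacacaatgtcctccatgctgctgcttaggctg

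ZACN had 59.6, 222.34 and 247.99 expected counts in sµg replicates 1, 2 and 3, against 1.02, 0 and 0 in 1g replicates 1, 2 and 3. The groups did not overlap, and the first sµg library stood well below the others. The exact Poisson 95% intervals were 45.4 to 76.8, 194.1 to 253.6 and 218.1 to 280.9 counts in the sµg libraries, and the upper bound of a count of 0 was 3.69 in 1g replicates 2 and 3. These intervals and the Wilson intervals below cover counting error only, and take divided reads as if each were a whole count. In CPM, the counts relative to the scaled total of the library, ZACN was at 2.86, 11.0 and 12.0 in sµg, against 0.0362, 0 and 0 in 1g, so that the highest sµg library was 4.21 times the lowest. Only 1 gene had 100 or more counts over the sµg libraries and 3 or fewer over the 1g libraries, which was ZACN, and 5 genes had the opposite pattern. ZACN was chosen by these counts, so its place here was fixed in advance. In total 21634 genes had 10 or more counts, and those with under 100 could not show either pattern.

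Almost all of these counts sat on the single exon shared with EXOC7. ZACN-205 held 58.58, 221.3 and 246.89 counts in sµg, or 98.3%, 99.5% and 99.6% of the ZACN counts, and 0 in every 1g library. These counts chose ZACN, and reads of the shared exon can be assigned to EXOC7 instead, so no fold is given. The other ZACN transcripts together held 1.02, 1.04 and 1.1 counts in the sµg libraries, against 1.02, 0 and 0 in the 1g libraries, levels at which the conditions cannot be set apart. ZACN-201, the transcript that encodes the channel, was at 0 in all 6 libraries, as were 2 further ZACN transcripts.

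In the sµg libraries and 1g replicate 1, the counts of ZACN and EXOC7 were fractions that added up to whole numbers, as they do when reads are divided between 2 genes. In the sµg libraries EXOC7 had 2995.4, 2892.66 and 2981.01 expected counts, and EXOC7 plus ZACN came to 3055, 3115 and 3229. In the 1g libraries EXOC7 had 3746.98, 2760 and 3073, and the sum was 3748, 2760 and 3073. ZACN was at 0 in 1g replicates 2 and 3, so a whole sum there shows no division. The sum was whole in all 6 libraries within a tolerance of 0.015 counts, and SRP68 was whole on its own in all 6 within 0.005 counts, with 1822, 1889 and 1979 in sµg and 2628, 1939 and 2199 in 1g. Being whole is common, since 14578 of the 21634 genes with 10 or more counts, or 67.4%, were whole in all 6 libraries. In the sµg libraries and 1g replicate 1, the fraction of ZACN was thus made whole by that of EXOC7. For SRP68 a whole count cannot decide whether reads could be shared. EXOC7, which does share exon bases with ZACN, was also whole in 1g replicates 2 and 3. The exons of SRP68 hold 0 of the exon bases of ZACN.

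Of the EXOC7 and ZACN counts together, ZACN received 1.95%, 7.14% and 7.68% in the sµg libraries (95% Wilson intervals 1.53% to 2.52%, 6.28% to 8.08% and 6.81% to 8.65%). In the 1g libraries the share was 0.0272%, 0 and 0, with upper bounds of 0.151%, 0.139% and 0.125%. The share differs between the conditions by the choice of ZACN, and within sµg it was lowest in replicate 1. The kit keeps the strand of the RNA, while the study's methods give default settings for RSEM, and these do not use strand. Without strand, a read wholly within the shared exon fits the plus-strand ZACN-205 and the minus-strand EXOC7 alike. Such reads of the 2 genes cannot be told apart in these tables. Every value of ZACN and the difference in EXOC7 are uncertain to that extent.

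Transcripts placed like ZACN-205 were few. Of 219802 transcripts found by identifier in the annotation, 1142, or 0.520%, lie wholly inside exons of 1 gene on the opposite strand, and 225 of these had 10 or more counts in total. ZACN-205 was the 1 transcript among them with 100 or more counts over the sµg libraries and 3 or fewer over the 1g libraries, and 0 had the opposite pattern. ZACN was chosen for its counts, so its place here was fixed in advance, and transcripts with under 100 counts could not show either pattern. Among all 232184 transcripts, wherever placed, 122 had the pattern of ZACN-205 and 193 the opposite one, against 1 and 5 genes by the same rule. Of the 232184, 53807 had enough counts for the test, so the share over all of them cannot be read as rarity. ZACN-205 was 1 of those 122 transcripts.

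EXOC7 itself was slightly higher in sµg. Its level was 144.0, 143.7 and 144.8 CPM in sµg, against 132.9, 133.9 and 135.4 CPM in 1g, and the groups did not overlap. Lack of overlap was common, as it held for 45.5% of the 16763 genes tested. The means were 144.2 ± 0.588 CPM in sµg and 134.0 ± 1.29 CPM in 1g (SD, n = 3 each), for a log2 difference of 0.11 ± 0.04 (SE, edgeR adjusted p = 0.0280). Of all genes tested, 33.7% passed this threshold, 15.5% higher and 18.2% lower in sµg, so a call of this size is not unusual here. The call was lost with DESeq2 (adjusted p = 0.0558), without the filter on low counts (adjusted p = 0.0810 from edgeR), and when any library but sµg replicate 3 was left out. Without sµg replicates 1 and 2 the adjusted p from edgeR was 0.0664 and 0.0654, and without 1g replicates 1, 2 and 3 it was 0.104, 0.0850 and 0.0678.

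When the counts of ZACN were added back to EXOC7, the difference became larger. The sum was 146.8, 154.8 and 156.9 CPM in sµg, against 132.9, 133.9 and 135.4 CPM in 1g. The log2 difference was 0.19, in a fit chosen after the shared reads had been seen. The sum uses the ZACN counts, which chose these genes and lie almost wholly in sµg, so adding them could only enlarge the difference, and it is given as a description with no test. In TPM, which takes account of the effective length, EXOC7 was at 51.0, 51.5 and 51.7 in sµg and 44.3, 44.4 and 45.9 in 1g.

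SRP68 did not pass the test. Its level was 87.6, 93.9 and 96.2 CPM in sµg, against 93.2, 94.0 and 96.9 CPM in 1g, with overlapping groups. The means were 92.5 ± 4.44 CPM in sµg and 94.7 ± 1.95 CPM in 1g (SD, n = 3 each), for a log2 difference of -0.03 ± 0.04 (SE, edgeR adjusted p = 0.593). The 95% interval of the ratio of sµg over 1g, which includes the scatter between libraries, ran between 0.922 and 1.04. The lowest sµg library, replicate 1, was also the one with the fewest ZACN counts, and without it the log2 fold change was 0.0046.

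**Figure D2:**
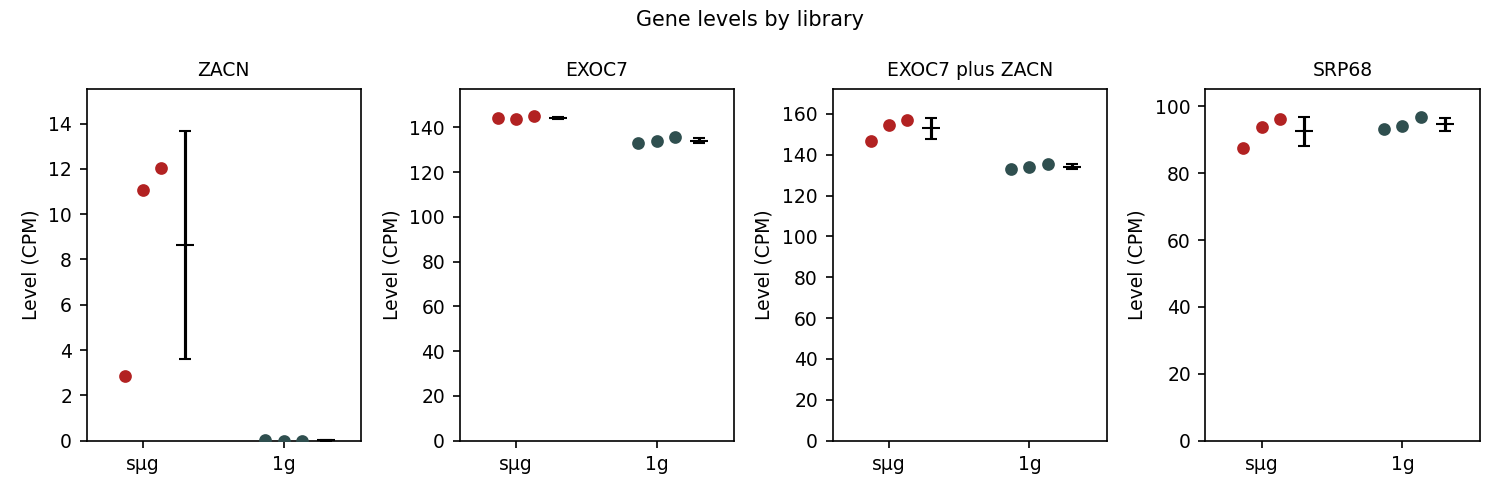
Levels of ZACN, EXOC7, the sum of both and SRP68 in CPM (vertical axes from 0), with 1 point per library and the mean ± SD beside each group, sµg at the left and 1g at the right. ZACN is at 2.86 to 12.0 CPM in sµg and at most 0.0362 CPM in 1g, EXOC7 is separated by a narrow gap, and SRP68 overlaps.

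The transcripts of EXOC7 were examined next, since the reads shared with ZACN-205 can come from only some of them. Of its 21 transcripts, 14 had 1 or more counts in a library and 7 were listed at 0 throughout. The 3 that hold over 99% of ZACN-205, namely EXOC7-216, EXOC7-201 and EXOC7-211, were the bulk of the gene, with 125.0, 123.7 and 117.9 CPM together in sµg and 117.1, 117.0 and 118.3 CPM in 1g. The 3 that hold 13.3% to 48.1% of it, EXOC7-202, EXOC7-218 and EXOC7-220, had 3.27, 0 and 0.998 CPM together in sµg and 1.49, 3.64 and 1.34 CPM in 1g. The 15 that hold less than 10% had 17.3, 21.2 and 25.1 CPM in sµg and 16.5, 14.7 and 17.4 CPM in 1g.

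Both leading transcripts encode EXOC7 proteins and differ by 1 internal coding exon of 93 bases, at chr17:76091143-76091235, besides their first and last exon ends. EXOC7-216 carries it and EXOC7-201 skips it. It is shown because it separates the transcript that holds all of ZACN-205 from the main one, and its length, a multiple of 3, keeps the reading frame.
EXOC7-216 only exon: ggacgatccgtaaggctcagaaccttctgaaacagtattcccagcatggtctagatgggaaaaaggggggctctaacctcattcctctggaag

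EXOC7-216 was at 41.0, 37.0 and 33.9 CPM in sµg, against 28.2, 16.9 and 30.1 CPM in 1g. The groups did not overlap, as held for 22.2% of the 53807 transcripts tested, and the order of the sµg libraries was the reverse of that of ZACN-205, which was lowest in replicate 1. The log2 fold change was 0.57 (standard error 0.22), which did not pass the test over all transcripts (adjusted p = 0.357 from edgeR). EXOC7-201 was at 82.5, 86.4 and 83.9 CPM in sµg, against 88.4, 100.2 and 87.9 CPM in 1g, for a log2 difference of -0.13 ± 0.06 (SE, edgeR adjusted p = 0.473). The 1g library with the lowest EXOC7-216, replicate 2, was also the one with the highest EXOC7-201.

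The levels were also taken with the ZACN-205 counts returned to either transcript, an alternative chosen after seeing the data. These counts chose the genes and lie in sµg alone, so the sums can only move upward there, and they are given as a description with no test. With them EXOC7-216 was at 43.8, 48.1 and 45.9 CPM in sµg, against 28.2, 16.9 and 30.1 CPM in 1g, for a log2 difference of 0.87. EXOC7-201 was then at 85.4, 97.5 and 95.9 CPM in sµg, against 88.4, 100.2 and 87.9 CPM in 1g, for a log2 difference of 0.01.

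Of the 7 EXOC7 transcripts with enough counts for the test, 0 were called by edgeR and 0 by DESeq2. Without adjustment 1 was under 0.05 in edgeR, namely EXOC7-216. Of all transcripts tested, 1.76% passed, 0.476% higher and 1.29% lower in sµg. EXOC7-212, a retained-intron transcript that holds under 10% of ZACN-205, had 3.96, 3.59 and 4.21 CPM in sµg, against 3.08, 3.13 and 3.22 CPM in 1g (log2 fold change 0.32, adjusted p = 0.529 from edgeR). EXOC7-204, another retained-intron transcript that shares no bases with ZACN-205, had 6.02, 7.56 and 8.54 CPM in sµg, against 6.04, 7.55 and 6.75 CPM in 1g. EXOC7-221, a coding transcript with the 93-base exon, had 3.65, 6.91 and 6.69 CPM in sµg and 4.87, 3.20 and 5.10 CPM in 1g. EXOC7-207, a coding transcript without it, had 2.46, 2.32 and 4.33 CPM in sµg, against 1.69, 0 and 1.56 CPM in 1g. The other transcripts of EXOC7 that were counted stayed at or under 3.64 CPM in every library.

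The share of transcripts with the 93-base exon was set against those that skip it. Over the 7 annotated transcripts that hold it and the 3 that skip it, the share of counts with the exon was 36.3%, 33.2% and 32.2% in sµg, against 28.0%, 19.3% and 29.1% in 1g. By TPM the share was 37.6%, 36.02% and 34.5% in sµg, against 30.9%, 22.4% and 31.8% in 1g. The groups did not overlap by either measure, and 1g replicate 2 stood well below the other 1g libraries. Both measures come from the same division of reads by RSEM. For transcript levels, lack of overlap held for 22.2% of the 53807 transcripts tested. A test of transcript use, which compares each transcript with the others of its gene, called 0 of the 7 EXOC7 transcripts, with an adjusted p above 0.99 for EXOC7-216 from edgeR, and 0.27% of the 48529 transcripts tested passed it, 0.124% with a higher and 0.146% with a lower share in sµg. ESRP1 and ESRP2, splicing regulators of epithelial cells of which ESRP1 is known to act on EXOC7, did not pass the test either. ESRP1 averaged 184.1 ± 9.75 CPM in sµg and 171.9 ± 3.81 CPM in 1g (SD, n = 3 each, adjusted p = 0.0714 from edgeR), and ESRP2 averaged 60.0 ± 1.46 CPM in sµg and 59.6 ± 2.02 CPM in 1g (SD, n = 3 each, adjusted p = 0.880 from edgeR). Without sµg replicate 3, ESRP1 passed, with a log2 fold change of 0.15 (adjusted p = 0.000146 from edgeR).

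**Figure D3:**
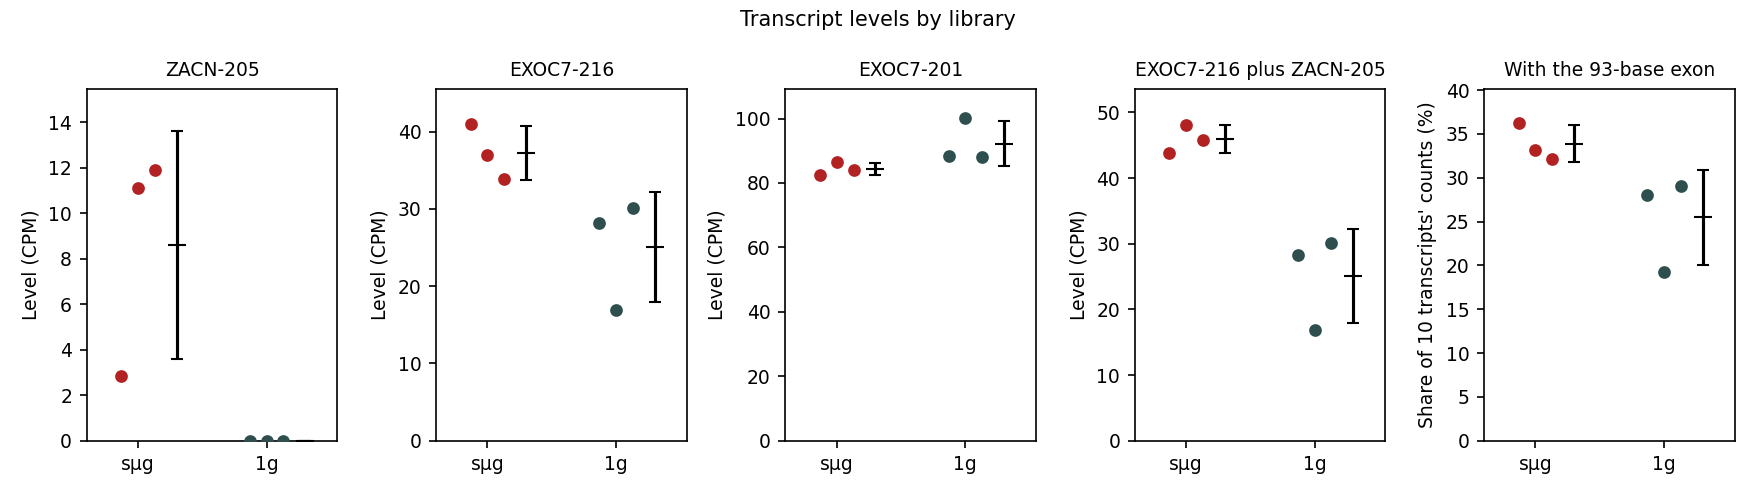
Levels of ZACN-205, EXOC7-216, EXOC7-201 and EXOC7-216 plus ZACN-205 in CPM, and the share with the 93-base exon among the counts of the 10 transcripts that hold or skip it, in percent, with 1 point per library and the mean ± SD beside each group, sµg left of 1g. EXOC7-216 lies at 33.9 to 41.0 CPM in sµg and at 16.9 to 30.1 CPM in 1g, and the exon's share at 32.2% to 36.3% in sµg and at 19.3% to 29.1% in 1g.

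SRP68 was carried by 2 of its 13 transcripts, with 10 counted in some library and 3 listed at 0. SRP68-201, which encodes the full protein, was at 67.8, 67.4 and 74.6 CPM in sµg, against 66.1, 73.3 and 74.3 CPM in 1g. SRP68-211, annotated as a target of nonsense-mediated decay, was at 18.2, 25.5 and 19.3 CPM in sµg, against 20.6, 19.8 and 17.6 CPM in 1g. Both pairs of groups overlapped. SRP68-202, a coding transcript, was at 0.971, 0 and 0 CPM in sµg, against 5.47, 0 and 3.56 CPM in 1g, so 1 sµg library and 2 1g libraries carried it. Of the 5 SRP68 transcripts tested, 0 passed at an adjusted p under 0.05, 0 had an unadjusted p under 0.05 from edgeR, and DESeq2 called 0. The test of transcript use also called 0 of 5.

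Among the RNAs for the signal recognition particle, those of SRP72, SRP14, SRP54 and SRP9 were higher in sµg, and SRP68 did not pass the test. Of the 8 genes for the particle and its receptor, 4 rose, 0 fell and 4 did not pass, beside 15.5% of all genes tested called higher and 18.2% called lower, with a median log2 fold change of 0.10 against 0.01 for all genes tested. SRP72, the partner of SRP68, averaged 212.6 ± 14.6 CPM in sµg and 187.7 ± 6.74 CPM in 1g (SD, n = 3 each), which is a log2 fold change of 0.18 (adjusted p = 0.00627 from edgeR). SRP14 and SRP9, the pair that slows translation while the ribosome is targeted, rose by 0.18 (adjusted p = 0.00321 from edgeR) and 0.11 (adjusted p = 0.0161) on the log2 scale. SRP54, the GTPase that holds the signal peptide, rose by 0.15 on the log2 scale (adjusted p = 0.00773 from edgeR). The receptor genes SRPRA and SRPRB and the particle gene SRP19 did not pass, with log2 fold changes of -0.07, 0.02 and 0.08. With an offset for effective length, 2 of the 8 were called, since SRP72 (adjusted p = 0.125 from edgeR) and SRP54 (adjusted p = 0.0716) no longer passed. SRP72 was not called by limma on log2(TPM + 1) either (adjusted p = 0.129), and SRP9 lost its call without 1g replicate 1 or 1g replicate 2 (adjusted p = 0.0734 and 0.0774 from edgeR).

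Of 11 genes of the translocon of the endoplasmic reticulum, through which the nascent chain passes, 4 rose, 0 fell and 7 did not pass the test, beside 15.5% of all genes called higher and 33.7% called in either direction. Their median log2 fold change was 0.09. SEC63, which helps to drive translocation, averaged 100.2 ± 3.39 CPM in sµg and 80.5 ± 2.15 CPM in 1g (SD, n = 3 each), which is a log2 fold change of 0.32 (adjusted p = 1.02e-05 from edgeR). SEC61A1, SEC61A2 and SEC61G, channel subunits, rose by 0.13, 0.23 and 0.24 on the log2 scale, and were called in 12, 8 and 11 of 15 alternatives. The count was 2 without 1g replicate 1 and 2 without 1g replicate 2, and with an offset for effective length 1 gene was called, SEC61A1. With that offset SEC63 had a log2 fold change of 0.16 (adjusted p = 0.325 from edgeR), and by limma on log2(TPM + 1) it had 0.19 (adjusted p = 0.262). Neither value passed the threshold.

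Among the 9 exocyst subunits, 3 rose, 1 fell and 5 did not pass the test, beside 15.5% of all genes called higher and 18.2% called lower, with a median log2 fold change of 0.09. EXOC7 was one of the 3, beside EXOC2 (log2 fold change 0.15, adjusted p = 0.0149 from edgeR), which binds Ral GTPases, and EXOC6 (log2 fold change 0.37, adjusted p = 0.00501), which binds the Rab GTPases of vesicles. EXOC6 averaged 11.8 ± 0.591 CPM in sµg and 9.07 ± 0.915 CPM in 1g (SD, n = 3 each). EXOC4, a core subunit, fell by 0.19 on the log2 scale (adjusted p = 0.00358 from edgeR), with 72.6 ± 3.50 CPM in sµg and 82.9 ± 3.20 CPM in 1g (SD, n = 3 each). The subunits called numbered 2 without 1g replicate 3, 2 without sµg replicate 2 and 7 without sµg replicate 3. On log2(TPM + 1) by limma, EXOC2, EXOC4 and EXOC6 were not called while EXOC7 was, with a log2 fold change of 0.19 (adjusted p = 0.0182).

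Of 8 GTPases that act with the exocyst, 0 rose, 2 fell and 6 did not pass the edgeR test, while 1 had an unadjusted p under 0.05 in the rising direction and DESeq2 called 0 rising and 1 falling. Of all genes, 18.2% were called lower and 15.5% higher. RALB, a Ral GTPase that binds exocyst subunits, fell by 0.23 on the log2 scale (adjusted p = 0.00394 from edgeR), with 25.3 ± 0.503 CPM in sµg and 29.5 ± 0.636 CPM in 1g (SD, n = 3 each). RHOQ, also called TC10, which binds EXOC7, fell by 0.18 on the log2 scale (adjusted p = 0.00494 from edgeR), with 46.7 ± 1.40 CPM in sµg and 53.0 ± 0.648 CPM in 1g (SD, n = 3 each). Neither was called with an offset for effective length or by limma on TPM, and RHOQ then had log2 fold changes of -0.040 with the offset and -0.0042 on log2(TPM + 1).

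**Figure D4:**
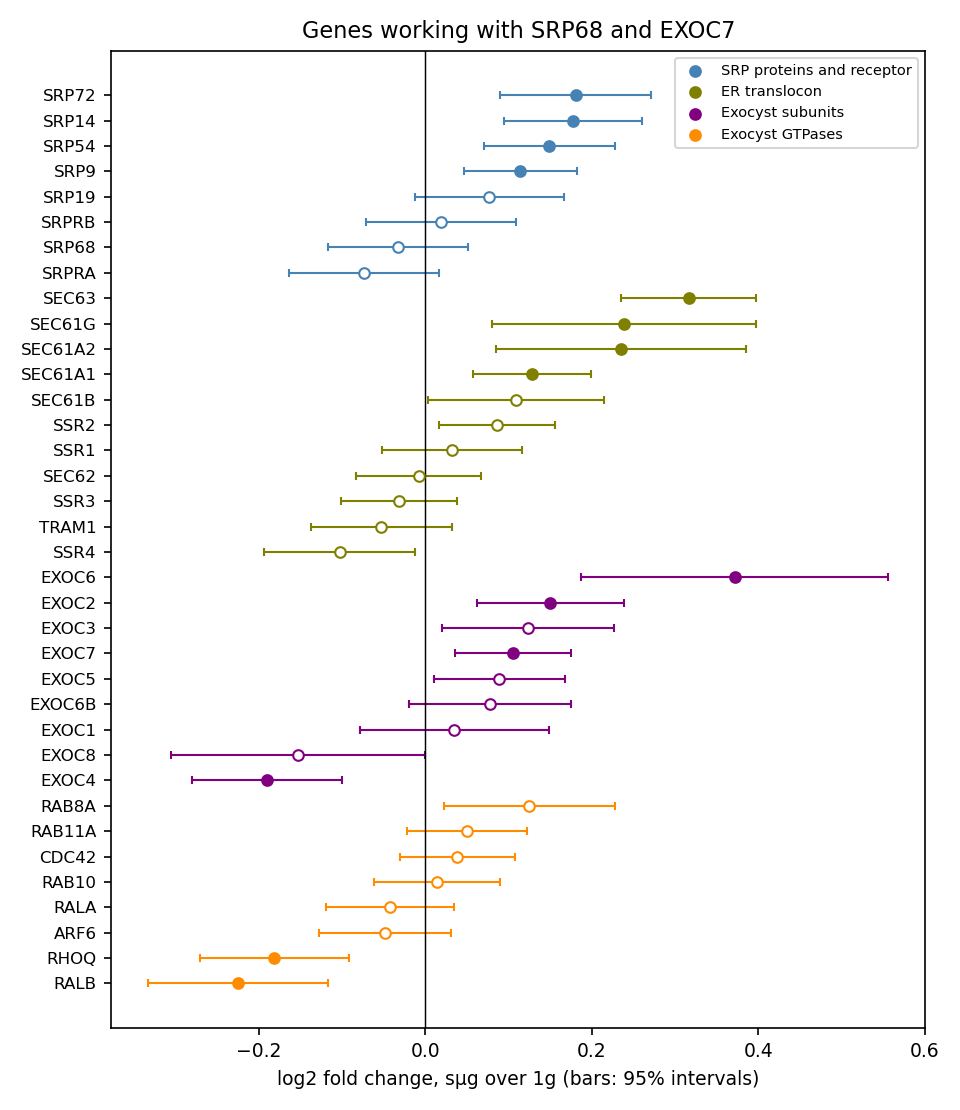
The log2 fold change of sµg over 1g (horizontal axis) with 95% intervals for the measured genes of the signal recognition particle and its receptor, the translocon, the exocyst and its GTPases, filled where the adjusted p from edgeR was under 0.05. SRP68 lies near 0 below SRP72, SRP14, SRP54 and SRP9, and EXOC7 at 0.11 lies among subunits that range from -0.19 for EXOC4 to 0.37 for EXOC6.

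The other channel genes of the family of ZACN were expressed at low levels for the most part. Of 45 listed Cys-loop subunits, 23 besides ZACN had enough counts for the test, of which 3 rose and 2 fell, beside 15.5% of all genes called higher and 18.2% called lower, with a median log2 fold change of -0.06. This is no more than the share over all genes. CHRNA10, a nicotinic subunit, rose by 1.10 on the log2 scale, with 1.43 ± 0.428 CPM in sµg and 0.658 ± 0.123 CPM in 1g (SD, n = 3 each), and was not called by DESeq2 (adjusted p = 0.0551). GABRB2 and GABRP, GABA-A subunits, fell by 1.296 and 1.23 on the log2 scale. ZACN itself had no counts on its coding transcript to set beside them.

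The genes around ZACN were followed up to 100 kb on either side. Of the 14 genes there, 11 besides ZACN were tested, of which 1 rose (EXOC7) and 3 fell, beside 15.5% and 18.2% of all genes, with a median log2 fold change of -0.22. RNF157, a ubiquitin ligase gene on the far side of EXOC7, averaged 17.8 ± 1.05 CPM in sµg and 29.2 ± 1.60 CPM in 1g (SD, n = 3 each), which is a log2 fold change of -0.72 (adjusted p = 1.30e-07 from edgeR), and was called in all 15 alternatives. FOXJ1, the transcription factor of motile cilia, fell by 0.24 (adjusted p = 0.0202 from edgeR) on the log2 scale, and was called in 7 of 15 alternatives. The calls numbered 1 without 1g replicate 1, 1 without 1g replicate 3, and 2 each without 1g replicate 2, sµg replicate 1 or sµg replicate 2. Further genes tested had log2 fold changes of -0.11 for TEN1, -0.22 for CDK3, -0.26 for TEN1-CDK3, -0.29 for EVPL, -0.68 for RNF157-AS1 and 0.17 for ENSG00000279382, none past the threshold. GALR2, inside the ZACN span, averaged 0.162 CPM in sµg and 0.367 CPM in 1g.

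**Figure D5:**
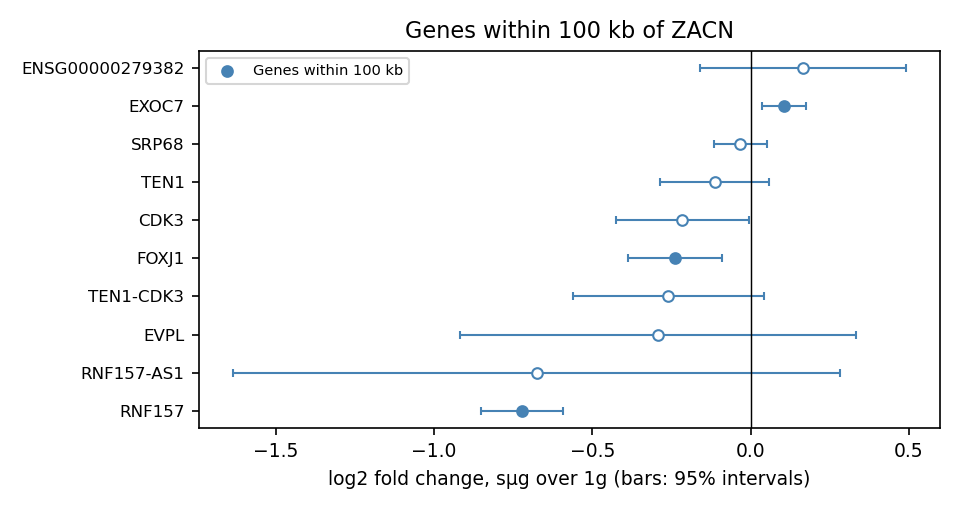
The log2 fold change of sµg over 1g (horizontal axis) with 95% intervals for 10 of the 11 genes within 100 kb that were tested besides ZACN, filled where the adjusted p from edgeR was under 0.05. EXOC7 at 0.11 is the filled point right of 0, and RNF157 at -0.72 lies farthest left of the filled points.

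Many genes followed ZACN across the 6 libraries, but ZACN was chosen for its difference between the conditions. A high r therefore largely restates that a gene differed between sµg and 1g, and the values are given as a description. Over 15631 genes tested that have a symbol, the 5 with the highest Pearson correlation of log2(CPM + 0.5) with ZACN were KHDC4, DDAH1, PCNX4, SLC15A2 and SYT2 (r = 0.998, 0.998, 0.996, 0.996 and 0.995, n = 6 libraries that share their depth and scaling). Of all of them, 1255 had r over 0.9, so a high r was common. KHDC4 had 39.8, 45.4 and 45.7 CPM in sµg, against 33.8, 34.1 and 33.6 CPM in 1g, with the first sµg library lowest of its group, as in ZACN. It was picked by its correlation over these same libraries, so the shared order is no separate result. EXOC7 ranked 476 with r = 0.947, and SRP68 ranked 8464 with r = -0.103.

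The pluripotency markers were high in every library and the listed markers of other cells differed between the conditions. The summed level of 7 pluripotency genes was 7307 to 7337 CPM in sµg and 8673 to 8770 CPM in 1g, with 3 of 7 lower in sµg, where 18.2% of all genes were called lower and 15.5% higher. The 3 were LIN28A, DNMT3B and SALL4, while POU5F1, SOX2, NANOG and TDGF1 did not pass the test. Most of the difference in the sum lay in LIN28A (2161.5 ± 137.7 CPM in sµg, 2792.5 ± 65.4 CPM in 1g) and DNMT3B (1797.3 ± 23.5 CPM in sµg, 2543.4 ± 17.7 CPM in 1g; SD, n = 3 each). Of the 7 trophectoderm and epithelial markers, 5 were tested and all 5 were lower in sµg, with a sum of 392 to 413 CPM in sµg and 468 to 475 CPM in 1g, and CGA was at 0 in all libraries. KRT18 made up most of that sum, with 391.3 ± 11.2 CPM in sµg and 423.6 ± 2.68 CPM in 1g (SD, n = 3 each). The sum therefore hides larger relative differences at low levels, and the median log2 fold change of the 5 was -2.78. GATA3 averaged 0.373 CPM in sµg and 10.2 CPM in 1g, and TFAP2A 2.69 and 18.6 CPM. HAND1 averaged 0.065 and 2.7 CPM, and KRT7 9.80 and 15.1 CPM. Among the mesoderm and endoderm markers, which share HAND1 with the list before, 2 of 5 tested were lower (sum 2.58 to 3.55 CPM in sµg, 6.69 to 8.68 CPM in 1g), and among the neural markers 1 of 4 tested was higher and 2 were lower (sum 133.6 to 136.5 CPM in sµg, 111.3 to 118.1 CPM in 1g), where TUBB3, the 1 that was higher, made up most of the sum with 127.6 ± 2.59 CPM in sµg and 104.7 ± 3.04 CPM in 1g (SD, n = 3 each). The part of such cells in the levels of EXOC7 and ZACN was not tested, and in bulk RNA fewer cells of a type and less RNA per cell cannot be told apart.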

How the data were processed

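RNA was sequenced in 6 libraries, 3 in sµg and 3 in 1g. Alignment by the authors used STAR 2.7.7a on GRCh38.p13 and a GENCODE annotation, and quantification used RSEM 1.3.3 at default settings. More than 1 alignment setting is described in the methods, and nothing used here tells which gave the files. The 12 deposited tables hold the expected count, TPM, effective length and, for transcripts, the percent of the gene's TPM, as the authors obtained them from RSEM. The deposited expected counts are not scaled between libraries. Exons and sequences were taken from GENCODE 44 on GRCh38. All 40 transcripts of the 3 genes had the same versioned identifier and length there.

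Expected counts were rounded and tested in R 4.3.3 with edgeR 4.0.16 (quasi-likelihood test, filterByExpr at count 10 and total 15, TMM scaling, condition as the single factor, Benjamini-Hochberg adjustment over all genes or transcripts). Every adjusted p is from edgeR unless another tool is named. Transcript use was tested with diffSpliceDGE. Alternatives used DESeq2 1.42.0, limma 3.58.1 on log2(TPM + 1) and log2(TPM + 0.1), RLE scaling, other filters, an effective length offset, a replicate block, an adjusted p under 0.01 and each library left out in turn. The scripts were tested on simulated data. CPM uses unrounded expected counts and TMM.

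The text names the 3 genes and their counted transcripts, genes within 100 kb, up to 4 members per list by adjusted p, and the 5 genes most like ZACN. Some uncalled members outside this rule were named for completeness. The members and lists were chosen with earlier results of these data known. Some genes of the lists and some sequences are not reported here.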

Additional observations from a re-analysis of the deposited data

How the results depend on the processing

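ZACN, with a mean of 8.65 CPM in sµg, had 6.96 to 11.5 CPM when 1 sµg library was left out, and its share of the counts of the 3 genes, 3.48% on average, was 2.83% to 4.60%. The SRP68 log2 fold change lay between -0.058 and 0.0046 when libraries were left out, turning positive without sµg replicate 1. EXOC7 kept its direction in all alternatives, with a log2 fold change of 0.10 to 0.11 when libraries were left out and 0.11 with DESeq2 and 0.10 without a filter on low counts, neither past the threshold, and it was not called at an adjusted p under 0.01 (0.11). Genes higher in sµg numbered 2591, but 1242 with an effective length offset, 1516 and 1489 by limma on log2(TPM + 1) and log2(TPM + 0.1), and 1587 at an adjusted p under 0.01. Genes lower numbered 3057, but 1864 with the offset, and 1463 and 1426 by limma. Over the 7 lists, 22 genes were called, 12 with the offset, 14 and 14 by limma, and 17 to 29 when libraries were left out. Transcripts higher numbered 256, but 1587 with DESeq2, 168 without a filter, 431 with at least 10 counts in every library and 15 to 146 with a library left out. Transcripts lower numbered 692, but 2301 with DESeq2 and 97 to 422 with a library left out. Transcript use called 131 transcripts, 44 with the stricter filter and 166 to 212 with a library left out. In 1g a ZACN count of 0 has a Poisson upper bound of 3.69 counts. That bound covers counting error only, and not the division of reads between ZACN-205 and EXOC7.

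Small values turned sign in some fits. EXOC7-201 had 0.012 with ZACN-205 counts added, and EXOC7-202 had 0.016 without 1g replicate 2 (lowest -2.06). SRP68-201 had 0.0023 and 0.0032 without 1g replicate 3 and sµg replicate 2 (lowest -0.078), SRP68-208 had 0.094 and 0.11 without 1g replicate 3 and sµg replicate 1 (lowest -0.43), and SRP68-211 had -0.041 without sµg replicate 2 (highest 0.21). ESRP2 had -0.015 and -0.0046 without 1g and sµg replicate 3 (highest 0.031). In transcript use, EXOC7-204 had -0.024 and -0.059 without 1g replicate 1 and sµg replicate 3, and -0.033 and -0.033 with ZACN-205 counts added to either EXOC7 transcript. In transcript use, SRP68-201 had -0.0195 with the stricter filter and -0.018 and -0.0093 without 1g replicate 1 and sµg replicate 3 (highest 0.038), and SRP68-208 had 0.083 and 0.081 without 1g replicate 3 and sµg replicate 1 (lowest -0.25). None of these passed the threshold, and the cause was not tested.

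The study's methods call the 1g samples matched without saying how, and the labels do not say that a replicate number marks a pair. The deviations of same-numbered libraries correlated at 0.0041, 0.041 and 0.013, so the numbers were not taken as pairs. With the replicate block, 0 transcripts were higher and 10 lower, 62 were called for transcript use, and EXOC7 had a log2 fold change of 0.11 (adjusted p = 0.0452 from edgeR). Not every library correlated best with its own number.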
